A study of Phaffia rhodozyma with 6 samples.

Results

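The genes described here encode the enzymes of the mevalonate pathway in the astaxanthin-producing yeast *Phaffia rhodozyma*, whose libraries were made with and without salicylic acid (SA). The members are 6 named gene IDs of 6249 genes in the deposited table, chosen by their enzyme descriptions, with earlier results of these data known. They are annotated as hydroxymethylglutaryl-CoA (HMG-CoA) synthase (unassigned_gene_2377), HMG-CoA reductase (unassigned_gene_11169), mevalonate kinase (unassigned_gene_973), phosphomevalonate kinase (unassigned_gene_8279), diphosphomevalonate decarboxylase (unassigned_gene_3317) and farnesyl pyrophosphate synthase (unassigned_gene_3617). The S group (3 libraries) was grown in YPD medium with 0.5 mg/L SA dissolved in water, and the C group (3 libraries) received water alone. Both groups were cells of strain AS2.1557 with no engineered change, and the study's methods describe the culture at 22 °C for 96 h without saying separately when cells for RNA were taken. The study's methods say that all experiments were repeated, but not whether the libraries of a group are separate cultures, so the p-values below measure the spread between libraries, which may be technical.

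The mevalonate pathway makes the 5-carbon building blocks of all isoprenoids from acetyl-CoA. HMG-CoA synthase joins acetoacetyl-CoA with acetyl-CoA, and HMG-CoA reductase turns HMG-CoA into mevalonate, the step known in yeasts and animals as the main control point of the route and the target of statins. Mevalonate kinase and phosphomevalonate kinase each add a phosphate, diphosphomevalonate decarboxylase then makes isopentenyl diphosphate, and farnesyl pyrophosphate synthase condenses these units into the precursor shared by sterols and, through geranylgeranyl pyrophosphate, carotenoids such as astaxanthin.

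For 2 of the 6 members the deposited annotation contradicted itself, which limits what their enzyme names mean. The table describes unassigned_gene_3617 as farnesyl pyrophosphate synthase, but its KEGG entry, enzyme number and GO terms are those of squalene synthase, which uses farnesyl pyrophosphate for sterol synthesis. The KEGG entry of farnesyl diphosphate synthase is carried instead by unassigned_gene_5293, an isoprenoid biosynthesis-related protein. The table describes unassigned_gene_973 as mevalonate kinase, but its KEGG entry, enzyme number and GO terms are those of cystathionine beta-lyase, an enzyme of methionine synthesis, and no gene of the table carries the mevalonate kinase entry. The names below follow the descriptions, and unassigned_gene_973 and unassigned_gene_3617 are therefore to be read as genes of uncertain assignment. For the other 4 members the description and the KEGG entry named the same enzyme.

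The transcripts of the first 2 enzymes fell in the SA libraries, and those of the kinases and the decarboxylase did not. HMG-CoA synthase was at 0.605 of its control mean and HMG-CoA reductase at 0.720, whereas diphosphomevalonate decarboxylase was at 1.27, mevalonate kinase at 1.17 and phosphomevalonate kinase at 1.17 of theirs, none of which passed the test. Values are FPKM, the number of sequenced fragments per length of transcript and per size of the library. They were tested as log2(FPKM + 0.1) with limma and Benjamini-Hochberg adjustment over the 6113 genes whose mean reached 0.5 FPKM, and a gene is called higher or lower where its adjusted p was under 0.05. All 6 members passed that limit on low values. Of them 2 were called lower in S, where 3.03% of all tested genes were, and 0 were called higher, where 19.9% of all tested genes were. At an unadjusted p under 0.05, 1 member was higher (diphosphomevalonate decarboxylase). The share of all tested genes higher at that looser threshold was not counted, but it is at least the 19.9% called after adjustment.

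That background depends on how libraries are scaled. The median tested gene was 0.21 higher in S on the log2 scale, and the median FPKM of a library lay between 29.2 and 32.0 in S and between 23.6 and 26.4 in C, without overlap. When every library was centred on its own median, 7.26% of tested genes were called higher and 15.3% lower. With quantile normalization 6.61% were called higher and 8.47% lower. In both of these scalings 3 members were called lower and 0 higher, the third being farnesyl pyrophosphate synthase. The third C library had the lowest median of all 6, the highest values of HMG-CoA synthase and HMG-CoA reductase and the lowest of mevalonate kinase and phosphomevalonate kinase. Without it HMG-CoA synthase was at -0.55 and HMG-CoA reductase at -0.42 on the log2 scale, and both calls held. Each member is therefore given on all 3 scales. FPKM are shares of the sequenced RNA, so less transcript per cell and a change in the RNA of the rest of the cell cannot be told apart.

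HMG-CoA synthase (unassigned_gene_2377) was at 473, 489 and 438 FPKM in the S libraries and at 632, 735 and 947 FPKM in the C libraries. Every S library lay below every C library, and the C libraries were spread more widely, with 467 ± 26.1 FPKM in S and 771 ± 161 FPKM in C (SD, n = 3 each). The log2 fold change was -0.71 (SE 0.13, 95% interval -0.996 to -0.416, limma adjusted p = 0.00650). It was -0.98 with centred libraries (adjusted p = 0.0101) and -0.66 with quantile normalization (adjusted p = 0.0188). The gene lies on the minus strand of contig LN483142.1, from base 1058822 to base 1061248, with 11 exons and a coding length of 1401 bases.

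HMG-CoA reductase (unassigned_gene_11169) was at 593, 521 and 529 FPKM in S and at 717, 746 and 817 FPKM in C. The groups did not overlap here either, with 548 ± 39.5 FPKM in S and 760 ± 51.9 FPKM in C (SD, n = 3 each). The log2 fold change was -0.47 (SE 0.085, 95% interval -0.66 to -0.28, limma adjusted p = 0.00593), and it was -0.75 with centred libraries (adjusted p = 0.00912) and -0.42 with quantile normalization (adjusted p = 0.0174). This gene has the longest coding sequence of the members, 3393 bases in 10 exons, on the plus strand of contig LN483332.1 from base 1802792 to base 1807221.

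The gene described as mevalonate kinase (unassigned_gene_973) was at 32.5, 31.0 and 33.4 FPKM in S and at 28.2, 29.5 and 25.4 FPKM in C. All S libraries lay above all C libraries, but by less than the test required (32.3 ± 1.22 against 27.7 ± 2.09 FPKM, SD, n = 3 each). The log2 fold change of 0.22 (SE 0.12, 95% interval -0.04 to 0.49, limma adjusted p = 0.200) was close to the shift of the median gene, and it was -0.05 with centred libraries (adjusted p = 0.727) and -0.05 with quantile normalization (adjusted p = 0.748). The gene covers bases 964428 to 968765 of contig LN483124.1 on the minus strand, with 13 exons and a coding length of 2715 bases.

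Phosphomevalonate kinase (unassigned_gene_8279), which makes mevalonate diphosphate, was the lowest member, at 6.48, 6.05 and 4.28 FPKM in S and at 5.49, 5.32 and 3.58 FPKM in C. The groups overlapped, with the lowest S library below 2 of the C libraries, and the means were 5.60 ± 1.16 and 4.80 ± 1.06 FPKM (SD, n = 3 each). The log2 fold change was 0.22 with an interval from -0.32 to 0.76 (SE 0.24, limma adjusted p = 0.534). Centred libraries gave -0.05 (adjusted p = 0.885) and quantile normalization -0.19 (adjusted p = 0.590). Its 7 exons span bases 2254517 to 2256740 of contig LN483167.1 on the plus strand, with a coding length of 1488 bases.

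Diphosphomevalonate decarboxylase (unassigned_gene_3317) was at 27.9, 29.0 and 28.5 FPKM in S and at 21.4, 24.2 and 21.5 FPKM in C. The S libraries lay above the C libraries and close together (28.4 ± 0.532 against 22.4 ± 1.59 FPKM, SD, n = 3 each). The log2 fold change of 0.35 (SE 0.12, 95% interval 0.08 to 0.62) had an unadjusted p of 0.0174 in limma and an adjusted p of 0.0653, which missed the threshold. With centred libraries the difference was 0.07 (adjusted p = 0.630) and with quantile normalization 0.06 (adjusted p = 0.721). This short gene of 3 exons (coding length 1203 bases) occupies bases 2484372 to 2485884 of contig LN483142.1 on the plus strand.

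The gene described as farnesyl pyrophosphate synthase (unassigned_gene_3617) was at 65.9, 72.0 and 69.3 FPKM in S and at 90.5, 85.9 and 68.8 FPKM in C. The third C library fell within the S range and the other C libraries lay above it, with means of 69.1 ± 3.05 and 81.7 ± 11.4 FPKM (SD, n = 3 each). On the deposited values the log2 fold change was -0.23 (SE 0.12, 95% interval -0.51 to 0.04, limma adjusted p = 0.191). It was called lower with centred libraries (-0.51, adjusted p = 0.0115), with quantile normalization (-0.42, adjusted p = 0.0325) and, on the deposited values, without the third C library (-0.35, adjusted p = 0.0263). The gene has 9 exons and a coding length of 1533 bases, on the plus strand of contig LN483144.1 from base 225415 to base 227832.

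**Figure D1:**
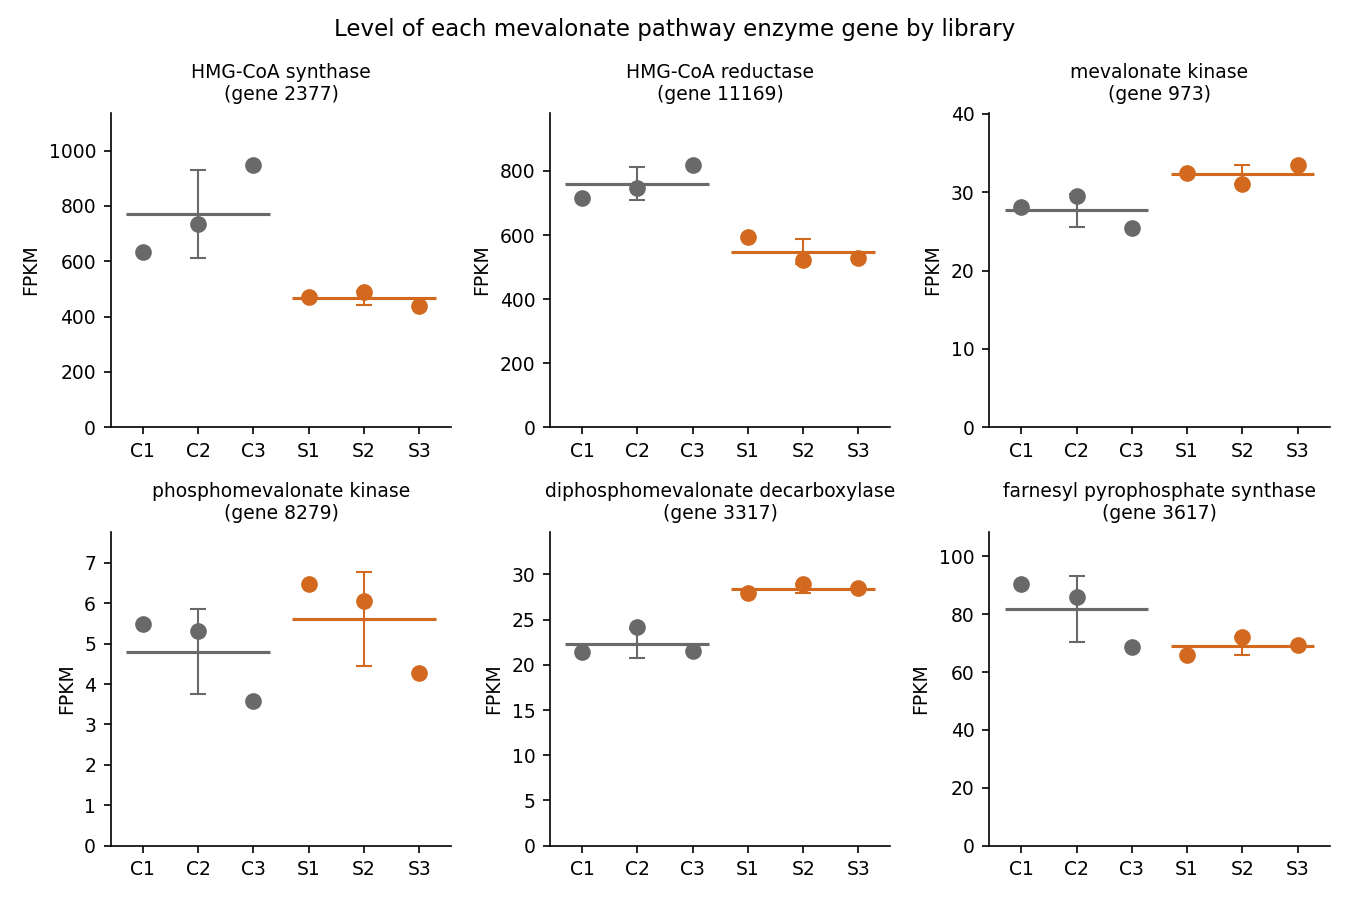
FPKM (y axis, from 0, a scale of its own in each panel) of the 6 members in each C library (grey) and S library (orange), with the group mean as a line and the SD as an error bar (n = 3 each). The S libraries lie below the C libraries for HMG-CoA synthase and HMG-CoA reductase, above them for mevalonate kinase and diphosphomevalonate decarboxylase, and overlap them for phosphomevalonate kinase and farnesyl pyrophosphate synthase.

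**Figure D2:**
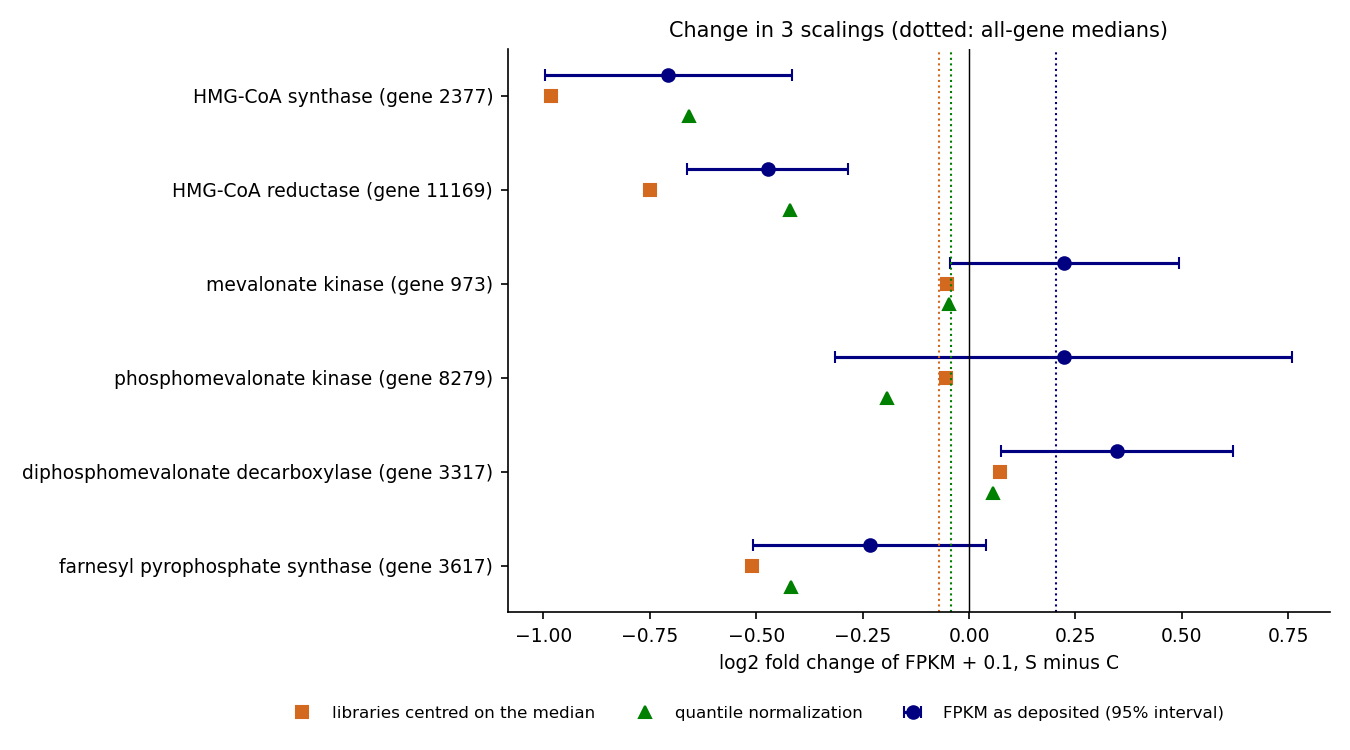
Log2 fold change (x axis, S minus C, of FPKM + 0.1) of each member on the deposited values (circles, 95% interval), with libraries centred on their median (squares) and after quantile normalization (triangles); dotted lines mark the median of all tested genes in the scaling of the same colour. HMG-CoA synthase and HMG-CoA reductase lie below 0 in all 3 scalings, while mevalonate kinase and phosphomevalonate kinase change sign.

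FPKM are divided by transcript length, so levels can be compared between the members. HMG-CoA reductase (653.8 FPKM over the 6 libraries) and HMG-CoA synthase (618.9 FPKM) ranked 180 and 196 of the 6113 tested genes and did not differ from each other beyond their spread. Farnesyl pyrophosphate synthase followed at 75.4 FPKM (rank 1442), and its libraries overlapped those of no other member. Mevalonate kinase at 30.0 FPKM (rank 2966) and diphosphomevalonate decarboxylase at 25.4 FPKM (rank 3243) overlapped each other across libraries. Phosphomevalonate kinase at 5.20 FPKM stood at rank 5337. Together the 6 members made up 0.172, 0.164 and 0.160% of the summed FPKM in the S libraries and 0.215, 0.234 and 0.269% in the C libraries, shares in which the first 2 enzymes hold most of the signal.

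The tested genes were cut into 10 bins of level, and both members called lower belong to the bin with the highest levels, and changes varied with level across the whole table. In that bin the median log2 fold change was -0.07, and 113 of 612 genes were called lower and 62 higher. HMG-CoA synthase had the 5th lowest fold change in it and HMG-CoA reductase the 24th lowest, and over all tested genes they were 30th and 89th lowest. In the bins that hold phosphomevalonate kinase, diphosphomevalonate decarboxylase, mevalonate kinase and farnesyl pyrophosphate synthase, the median log2 fold changes were 0.31, 0.25, 0.21 and 0.14. The part of level in the members' changes was not tested.

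**Figure D3:**
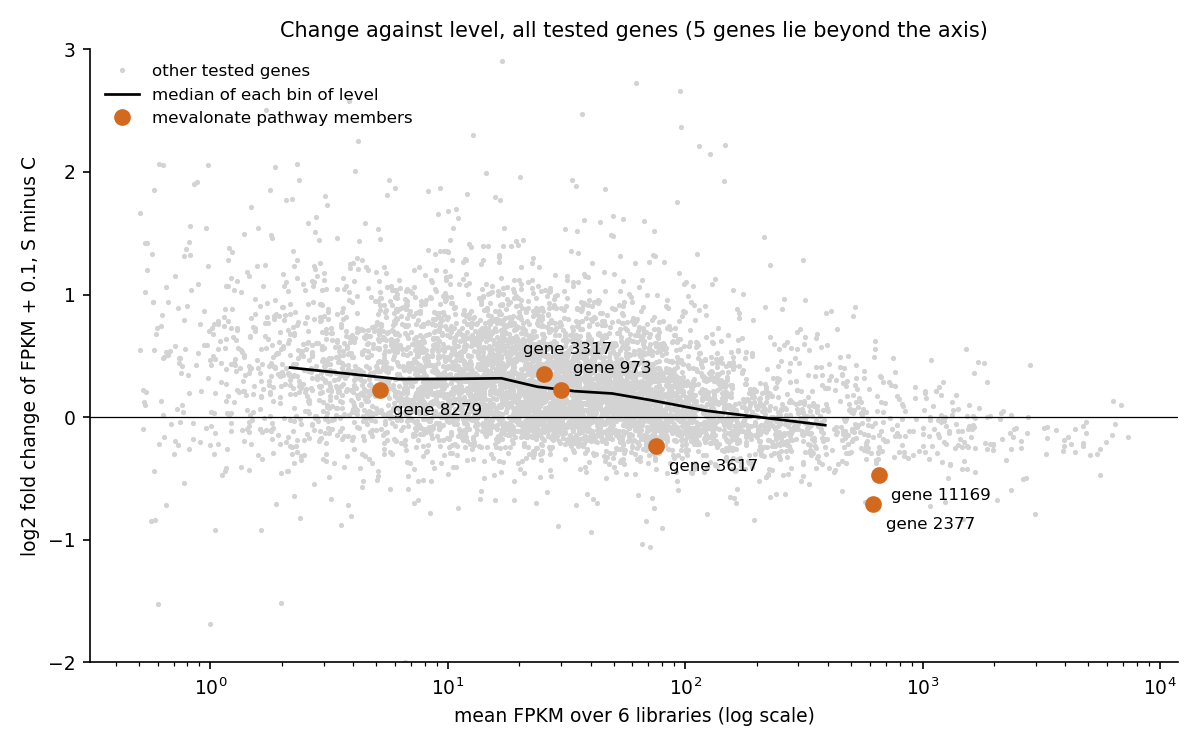
Log2 fold change (y axis, S minus C, of FPKM + 0.1) against mean FPKM over the 6 libraries (x axis, log scale) for the tested genes (grey), the 6 members (orange) and the median of each bin of level (line); 5 genes lie beyond the y axis. HMG-CoA synthase and HMG-CoA reductase sit under the line at the high end, where the median is -0.07, while mevalonate kinase and phosphomevalonate kinase lie near it.

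Whether the members changed by different amounts was asked from their ratios within each library. Centring a library leaves these ratios as they are, whereas quantile normalization changes them. Every tested gene was divided by 1 member in the same library and refitted with limma, each member serving once as the reference, and a pair was called different where the adjusted p was under 0.05 with each of the 2 members as the reference. Of 15 pairs, 6 differed, and 4 of these with quantile normalization, an alternative chosen after seeing the data. The share of all genes that differed from the reference was 85.9% for HMG-CoA synthase, 77.6% for HMG-CoA reductase, 16.7% for mevalonate kinase, 1.62% for phosphomevalonate kinase, 23.5% for diphosphomevalonate decarboxylase and 55.3% for farnesyl pyrophosphate synthase. A difference from HMG-CoA synthase or reductase was thus the common case among genes. The SE and interval given for a pair are from the fit with the member later in the route as the reference. Limma shares variance between genes, so they do not rest on the spread of that pair between libraries alone.

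HMG-CoA synthase stood at 16.9, 16.9 and 15.4 times the FPKM of diphosphomevalonate decarboxylase in S and at 29.6, 30.4 and 44.0 times in C. The ratio was lower in every S library, and its log2 difference was -1.05 (SE 0.14, larger of the 2 limma adjusted p-values 0.00105). The ratio of HMG-CoA reductase to diphosphomevalonate decarboxylase was 21.3, 17.99 and 18.6 in S and 33.5, 30.8 and 38.0 in C, a log2 difference of -0.82 (SE 0.11, larger adjusted p = 0.000915). Against the gene described as mevalonate kinase the log2 differences were -0.93 for HMG-CoA synthase (SE 0.18, larger adjusted p = 0.0119) and -0.70 for HMG-CoA reductase (SE 0.12, larger adjusted p = 0.00942). The first of these lost its call without the third S library (adjusted p = 0.0537). With quantile normalization these 4 pairs were still called, with smaller log2 differences of -0.71 and -0.48 against the decarboxylase and -0.61 and -0.37 against mevalonate kinase.

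The 2 enzymes of the early steps were not shown to change by different amounts. The ratio of HMG-CoA synthase to HMG-CoA reductase was 0.797, 0.939 and 0.828 in S and 0.882, 0.985 and 1.16 in C, and these ranges overlapped. Their changes differed by -0.23 (95% interval -0.48 to 0.02). The limma adjusted p was 0.0819 in the fit that gave this interval, with HMG-CoA reductase as the reference, and 0.266 with HMG-CoA synthase. HMG-CoA synthase and farnesyl pyrophosphate synthase differed by -0.47 (95% interval -1.03 to 0.09, adjusted p = 0.125), a pair that was called without the first C library (adjusted p = 0.0307). HMG-CoA reductase and farnesyl pyrophosphate synthase differed by -0.24 (95% interval -0.65 to 0.17, adjusted p = 0.268), and mevalonate kinase and diphosphomevalonate decarboxylase by -0.12 (95% interval -0.41 to 0.16, adjusted p = 0.515).

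Farnesyl pyrophosphate synthase differed from diphosphomevalonate decarboxylase and mevalonate kinase, the members whose S libraries all lay above their C libraries. The ratio of diphosphomevalonate decarboxylase to it was 0.423, 0.402 and 0.411 in S and 0.236, 0.282 and 0.313 in C, a log2 difference of 0.58 (SE 0.12, larger limma adjusted p = 0.00794). The ratio of mevalonate kinase to it was 0.492, 0.430 and 0.483 in S and 0.311, 0.343 and 0.369 in C, a log2 difference of 0.46 (SE 0.10, larger adjusted p = 0.0250). The latter was lost when any 1 of 4 libraries (S1, S3, C1 or C2) was left out (adjusted p from 0.0601 to 0.0967). With quantile normalization neither pair was called (0.47, adjusted p = 0.0503, and 0.37, adjusted p = 0.0768). None of the 5 pairs with phosphomevalonate kinase was called different, and their SEs ran from 0.19 to 0.31. A call needed both references, and 1.62% of all genes differed from phosphomevalonate kinase. The ratio of HMG-CoA synthase to it was 72.9, 80.9 and 102 in S and 115, 138 and 264 in C. Their log2 difference was -0.93 (limma adjusted p = 0.0194 with HMG-CoA synthase as the reference, 0.125 with phosphomevalonate kinase). For HMG-CoA reductase it was -0.70 (adjusted p = 0.0300 and 0.440), also without overlap of the ratios. With the other members both adjusted p-values were over 0.05.

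**Figure D4:**
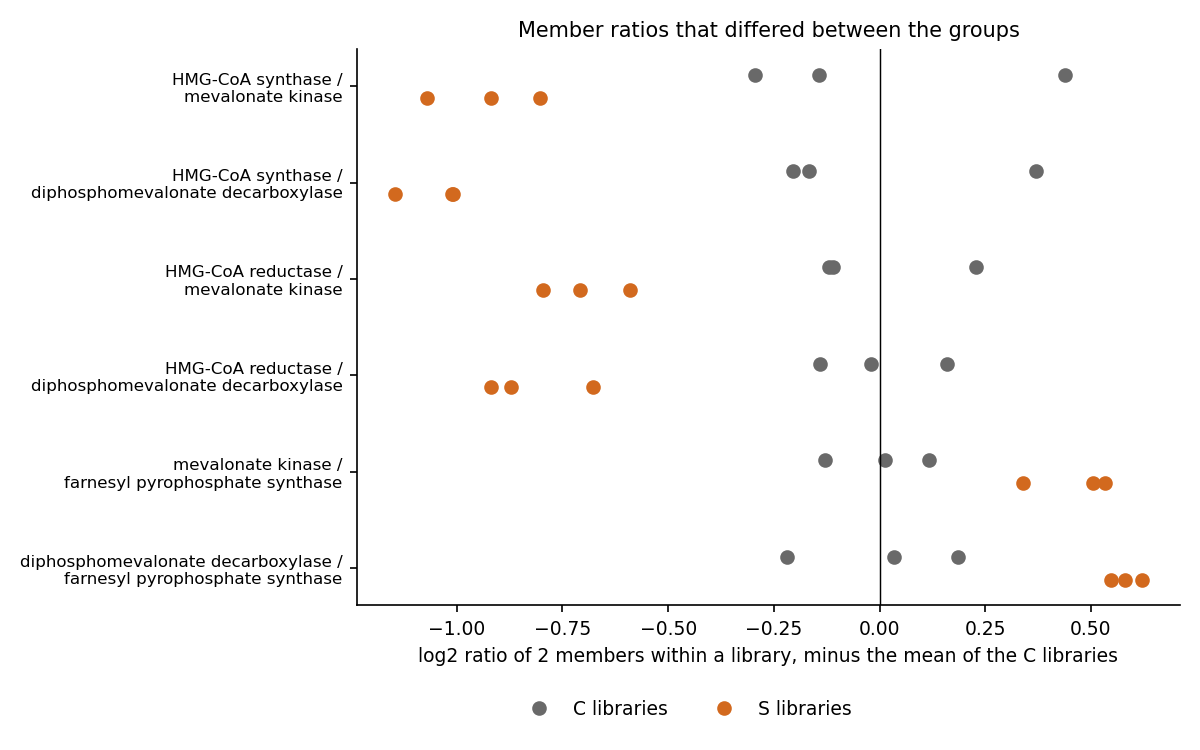
Log2 ratio of 2 members within a library, minus the mean of the C libraries (x axis), for the 6 pairs that differed; each point is 1 library, grey for C and orange for S. In all 6 pairs the S libraries lie to one side of the C libraries, but the pairs were picked by their difference between these same libraries.

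The genes before and after the members in the route were taken from lists of known steps. Counts of calls from here on stand beside 19.9% of all tested genes higher and 3.03% lower on the deposited values. Of 4 genes for entry and exit steps, 1 was called lower and 0 higher in each of the 3 scalings. This was geranylgeranyl pyrophosphate synthase (unassigned_gene_7795), which makes the direct precursor of carotenoids. It was at 377, 364 and 332 FPKM in S and at 450, 475 and 541 FPKM in C, with no overlap and a log2 fold change of -0.45 (SE 0.094, limma adjusted p = 0.0104). Another gene, unassigned_gene_1723, is described as geranylgeranyl pyrophosphate synthase/polyprenyl synthetase. It is given below with the users of prenyl diphosphates and had the opposite sign, 0.28, without a call. IPP isomerase (unassigned_gene_1185), which interconverts the 5-carbon units, was at 107.1 ± 5.98 FPKM in S and 104.6 ± 6.64 FPKM in C (SD, n = 3 each), a log2 difference of 0.04 with a 95% interval of -0.19 to 0.26. The acetyl-CoA acyltransferase with the enzyme number of acetoacetyl-CoA formation (unassigned_gene_6783) was at 246.2 ± 7.20 and 244.8 ± 5.30 FPKM, a log2 difference of 0.01 with a 95% interval of -0.17 to 0.19. The phytoene/squalene synthetase (unassigned_gene_10755), whose GO terms name assembly of a respiratory complex, had a log2 fold change of 0.29 (adjusted p = 0.268).

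The gene that carries the farnesyl diphosphate synthase entry, unassigned_gene_5293, was at 85.1, 77.8 and 69.3 FPKM in S and at 94.7, 95.5 and 87.8 FPKM in C. Its S libraries lay below its C libraries, with a log2 fold change of -0.26 (SE 0.11, limma adjusted p = 0.106). It was called lower with centred libraries (-0.54, adjusted p = 0.0163) and with quantile normalization (-0.42, adjusted p = 0.0379), the same calls as for unassigned_gene_3617.

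**Figure D5:**
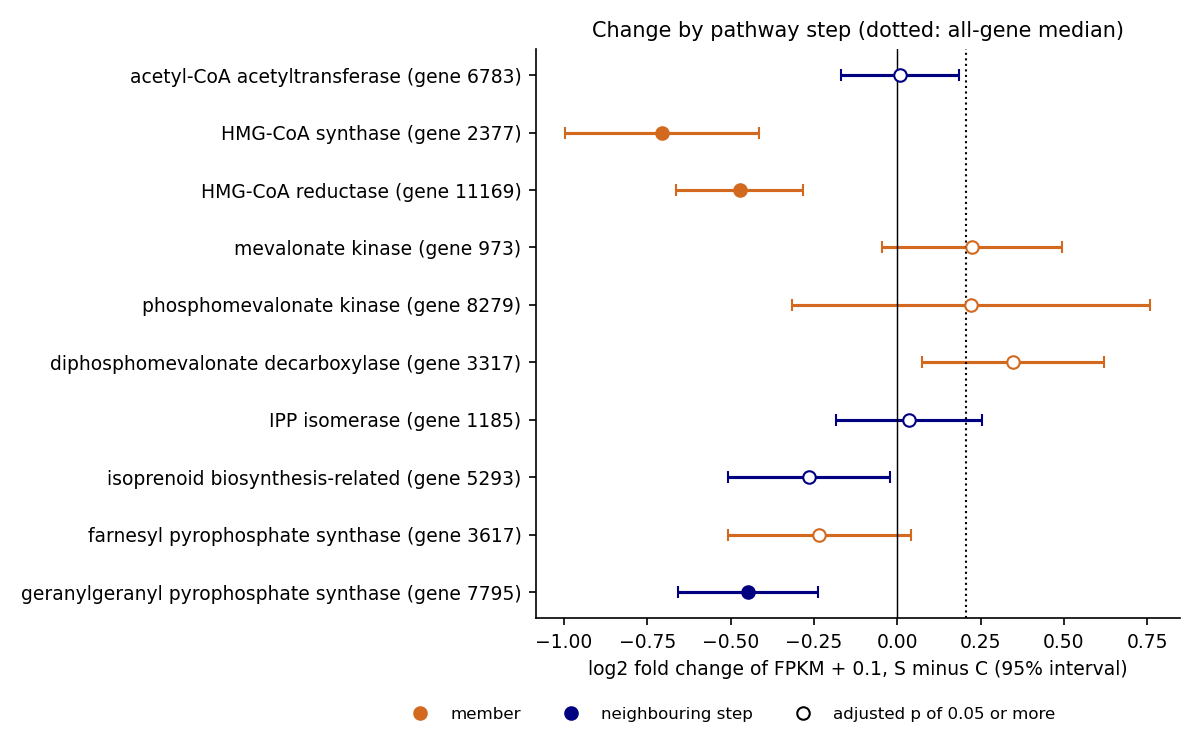
Log2 fold change (x axis, S minus C, of FPKM + 0.1, 95% interval) of the members (orange) and of neighbouring steps (blue), from top to bottom in the order of the route by description; open circles have a limma adjusted p of 0.05 or more, and the dotted line is the median of all tested genes (0.21). The filled points are HMG-CoA synthase (-0.71), HMG-CoA reductase (-0.47) and geranylgeranyl pyrophosphate synthase (unassigned_gene_7795, -0.45). The other gene with that enzyme in its description, unassigned_gene_1723, is not drawn.

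Sterol synthesis, which draws on farnesyl pyrophosphate, held genes called in both directions. Of 21 genes on the KEGG map of steroid biosynthesis, 5 were called higher and 4 lower on the deposited values, with a median log2 fold change of 0.10, beside 0.21 over all tested genes. With centred libraries 1 was higher and 6 lower, and with quantile normalization 2 were higher and 3 lower. Lanosterol synthase (unassigned_gene_2183), which closes the sterol rings, was at 593, 516 and 532 FPKM in S and at 765, 801 and 706 FPKM in C, a log2 fold change of -0.47 (limma adjusted p = 0.00595). C-8,7 sterol isomerase (unassigned_gene_6775) fell by 0.52 on that scale (adjusted p = 0.00770). Both were also called lower in the other scalings. C-24 reductase (unassigned_gene_2739) rose by 0.78 (adjusted p = 0.0151), a call that did not hold with centred libraries (adjusted p = 0.0873) or quantile normalization (adjusted p = 0.151). The gene of this map with the smallest p, unassigned_gene_10485, rose by 1.12 (adjusted p = 0.00193) and carries the lanosterol synthase entry, but it is described as suppressor of G2 allele of skp1, a protein of the ubiquitin ligase and chaperone systems.

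The carotenoid genes that follow geranylgeranyl pyrophosphate were 3 of 4 higher and 0 lower on the deposited values, beside 19.9% and 3.03% of all tested genes. In the other scalings 0 of 4 were called in either direction (limma adjusted p from 0.183 to 0.899 with centred libraries and from 0.0923 to 0.244 with quantile normalization). The phytoene-beta carotene synthase (unassigned_gene_3233), with 105 FPKM in the third S library and 68.9 FPKM in each of the others, rose by 0.57 (limma adjusted p = 0.0323). One astaxanthin synthase (unassigned_gene_2447) rose by 0.40 (adjusted p = 0.0347) and phytoene dehydrogenase (unassigned_gene_3359) by 0.30 (adjusted p = 0.0390). The second gene described as astaxanthin synthetase (unassigned_gene_4765) had a value of 0.24 (adjusted p = 0.191). All 4 were at 51.4 FPKM or more in every library, as the species label implies.

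The other users of prenyl diphosphates numbered 13, of which 2 were called higher and 0 lower, with a median log2 fold change of 0.41. With centred libraries 1 was higher and 1 lower, and the same counts held with quantile normalization. Dehydrodolichyl diphosphate synthetase (unassigned_gene_11421), which makes the lipid carrier of protein glycosylation, was at 26.2, 32.7 and 35.1 FPKM in S and at 17.96, 21.5 and 14.9 FPKM in C. It rose by 0.79 (SE 0.17, limma adjusted p = 0.0115) and was called higher in all 3 scalings. The shared alpha subunit of protein farnesyltransferase and protein geranylgeranyl transferase I (unassigned_gene_1051) rose by 0.69 (adjusted p = 0.0427), and this was not called with centred libraries (adjusted p = 0.116) or with quantile normalization (adjusted p = 0.288). The geranylgeranyl transferase I beta subunit (unassigned_gene_8027) had a value of -0.16 (adjusted p = 0.433) and was the gene called lower with centred libraries (-0.44, adjusted p = 0.0259) and with quantile normalization (-0.49, adjusted p = 0.0267).

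The remaining 10 genes of that list were not called on the deposited values. The farnesyltransferase beta subunit (unassigned_gene_4315) and the CAAX metalloprotease (unassigned_gene_2723) had log2 differences of 0.03 and 0.05. The prenyl protein protease (unassigned_gene_8187) was at 0.60 (limma adjusted p = 0.0537), and a protein with a thioredoxin-like fold that shares its KEGG entry (unassigned_gene_89) was at 0.58 (adjusted p = 0.0504). The carboxyl methyltransferase ste14p (unassigned_gene_11079) was at 0.38 and the 4-hydroxybenzoate polyprenyl transferase of ubiquinone synthesis (unassigned_gene_3417) at 0.41. The gene described as geranylgeranyl pyrophosphate synthase/polyprenyl synthetase (unassigned_gene_1723) was at 0.28 (adjusted p = 0.139), with every S library above every C library. It was at 0.005 with centred libraries and at 0.02 with quantile normalization. The geranylgeranyl transferase II alpha subunit (unassigned_gene_5199), the rab geranylgeranyl transferase (unassigned_gene_7077) and the RAB escort protein (unassigned_gene_12521), which prenylate vesicle-trafficking GTPases, were at 0.58, 0.41 and 0.20. The KEGG map of terpenoid backbone biosynthesis holds 12 genes that are not members. Of these, 2 were called higher (unassigned_gene_11421 and unassigned_gene_1051) and 1 lower (unassigned_gene_7795), with 1 higher and 2 lower in each of the other scalings.

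Genes that supply acetyl-CoA, the starting material of the route, were called higher in 2 of 12 cases and lower in 1. Over all tested genes these shares were 19.9% and 3.03%. ATP-citrate synthase (unassigned_gene_4043), which makes cytosolic acetyl-CoA from citrate, was at 859 ± 58.9 FPKM in S and 666 ± 41.8 FPKM in C (SD, n = 3 each) and rose by 0.37 on the log2 scale (limma adjusted p = 0.0131), with 0.09 and no call with centred libraries (adjusted p = 0.562). Acetate ligase (unassigned_gene_4273) rose by 0.62 (adjusted p = 0.0228), with 1020 FPKM in the third S library against 681 and 604 FPKM in the others, and was not called with centred libraries (adjusted p = 0.168). Pyruvate decarboxylase (unassigned_gene_3005) fell by 0.59 (adjusted p = 0.0155), a call that was lost with quantile normalization (adjusted p = 0.0814). An aldehyde dehydrogenase (unassigned_gene_6839) at 0.54 was not called (adjusted p = 0.0918). With centred libraries 0 genes of this list were higher and 1 lower, and with quantile normalization 2 were higher and 0 lower.

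HMG-CoA is also cleaved by HMG-CoA lyase (unassigned_gene_3677) in the breakdown of leucine, and this gene was at 7.39 ± 0.814 FPKM in S and 6.88 ± 0.339 FPKM in C (SD, n = 3 each), a log2 difference of 0.10 (95% interval -0.28 to 0.48). In other fungi the pathway is controlled by sterol-sensing factors and by the ubiquitin-dependent removal of HMG-CoA reductase. The description words searched for matched 1 SREBP protease (unassigned_gene_2935), with a log2 difference of 0.34 (limma adjusted p = 0.0836), and the KEGG entry of HRD1 matched 1 E3 ubiquitin ligase (unassigned_gene_4329), with -0.05 (adjusted p = 0.831). Over all these lists 12 of 58 genes were called higher and 6 lower, beside 19.9% and 3.03% of all tested genes. With centred libraries 2 were higher and 10 lower, beside 7.26% and 15.3% of all tested genes. Genes of mating and meiosis, as a check for other states of the culture, were all at or below 4.93 FPKM, and 0 of 5 were called. All 5 had higher means in S, with log2 differences of 0.58 to 1.20 and a median of 0.77 beside 0.21 over all tested genes. In the bins of level 1 and 2, the lowest, the median of all genes was higher, 0.40 and 0.31. With centred libraries the median of the 5 was 0.49 and with quantile normalization 0.37, and 0 were called in either. In 3 of them every S library lay above every C library (unadjusted limma p of 0.0125, 0.0186 and 0.0354). The share of all tested genes with such a separation was not counted, so it is not read as a trait of these genes. The share higher at an unadjusted p under 0.05 was not counted either. That share is at least the 19.9% called higher after adjustment. The part of the mating and meiosis genes in the members' changes was not tested.

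Genes whose values followed those of a member were searched among 3705 annotated genes that averaged 10 FPKM or more, by Pearson's r over the 6 libraries, which form 2 groups. These values are descriptions without a test. For the members whose groups do not overlap, part of r comes from the difference between the groups. For HMG-CoA synthase the closest gene was geranylgeranyl pyrophosphate synthase (unassigned_gene_7795, r = 0.983), followed by an endonuclease/exonuclease/phosphatase (unassigned_gene_4667, r = 0.982), and 17 candidates exceeded 0.95. For HMG-CoA reductase 48 exceeded it, led by 60S ribosomal protein L18 (unassigned_gene_12195, r = 0.989) and an ADP-ribosylation factor (unassigned_gene_4531, r = 0.989).

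For diphosphomevalonate decarboxylase 132 candidates exceeded 0.95, led by a gene of the cystathionine beta-lyase and gamma-synthase family (unassigned_gene_4365, r = 0.996) and the RNA polymerase II subunit RPB3 (unassigned_gene_2891, r = 0.994). For mevalonate kinase there were 65, led by a SUR7/PalI protein of the cell cortex (unassigned_gene_10399, r = 0.996) and an inositol polyphosphate 5-phosphatase (unassigned_gene_7959, r = 0.989). For farnesyl pyrophosphate synthase there were 54, led by the proteasome regulator PI31 (unassigned_gene_6585, r = 0.996) and the cysteine desulfurase nfs1 (unassigned_gene_2249, r = 0.993). For phosphomevalonate kinase there were 10, led by a general substrate transporter (unassigned_gene_12155) and a histidine kinase (unassigned_gene_5731), both at r = 0.982. Among the members themselves r was 0.945 between HMG-CoA synthase and reductase, 0.894 between mevalonate kinase and the decarboxylase, and -0.943 between HMG-CoA synthase and mevalonate kinase.

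The members were spread over 5 of the 70 contigs of the table. Only HMG-CoA synthase and diphosphomevalonate decarboxylase shared a contig, with 1423123 bases between them. No member overlapped a neighbouring gene, and the gaps to the genes on either side ran from 337 to 1309 bases. Of the 12 neighbours, the one after HMG-CoA synthase (unassigned_gene_2379, a conserved protein of no stated function) was lower in S, with a log2 fold change of -0.30 (limma adjusted p = 0.0456). The tryptophan synthase gene trp1 before diphosphomevalonate decarboxylase (unassigned_gene_3315) fell by 0.46 (adjusted p = 0.00530), opposite in sign to the 0.35 of the decarboxylase. These neighbours were called lower in the other scalings too.

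Of the other 10 neighbours, 3 were called higher and 0 lower on the deposited values, 1 higher and 1 lower with centred libraries, and 1 higher and 0 lower with quantile normalization. Beside HMG-CoA reductase, a nucleosome assembly protein (unassigned_gene_11167) and the BUD22 gene (unassigned_gene_11171) were at -0.11 and 0.11, the former being the gene called lower with centred libraries (-0.39, limma adjusted p = 0.0287). Before HMG-CoA synthase, a PHD finger protein (unassigned_gene_2375) was at -0.02. The protein phosphatase pp1 gene before mevalonate kinase (unassigned_gene_971) rose by 0.60 (limma adjusted p = 0.00708), a call that held in all 3 scalings, and the VPS23 gene after it (unassigned_gene_975) was at -0.03. Ring-box protein 1 before phosphomevalonate kinase (unassigned_gene_8277) rose by 0.43 (adjusted p = 0.0200, but 0.275 with centred libraries), and a kinase-like protein after it (unassigned_gene_8281) was at 0.22. A conserved protein after the decarboxylase (unassigned_gene_3319) was at 0.31. A GNAT domain gene before farnesyl pyrophosphate synthase (unassigned_gene_3615), at most 2.70 FPKM in any library, rose by 1.55 (adjusted p = 0.0277, but 0.0564 with centred libraries), and a glutaredoxin after it (unassigned_gene_3619) was at 0.54.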

How the data were processed

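RNA-seq of 6 *P. rhodozyma* libraries (S and C, 3 each) was analysed from the deposited table of 1 row per gene. The authors used fastp for read cleaning, HISAT2 for mapping and StringTie for the FPKM values (tool versions: not given in the sources used here). More than 1 assembly is named in the study's text, so contig names are those of the table and the build was not settled. Whether the authors' counting used strand is also not given there. The study gives the number of valid reads per library, but no counts per gene were used here, so no counting interval is given, and low genes such as phosphomevalonate kinase are known less precisely. The table's own fold changes, p-values and q-values were not used, and neither was edgeR, which needs counts. Per the file headers, length, exons and position were deposited as annotation columns, and lengths are called coding lengths because nearly all are multiples of 3.

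The log2(FPKM + 0.1) values of 6113 genes (mean of 0.5 FPKM or more) entered limma (version 3.58.1, R 4.3.3) with its trend of variance on level, giving two-sided p-values adjusted by Benjamini-Hochberg. Fold changes on this scale understate those of low genes. Libraries were also centred on their median or quantile normalized. Other alternatives were pseudocounts of 1 and 0.01, no limit or a limit of 1 FPKM, no trend, the replicate number as a block, and leaving out each library. Ratios under quantile normalization and the members without the uncertain annotations were added after seeing the data. On simulated data based on these libraries, the fits were checked before use. The planted changes were larger than those of the members, so detection at the members' sizes was not checked. The ratio fit was checked only with an unchanged reference gene of the smallest SD and with noise drawn independently for each gene. How it behaves with a variable reference such as phosphomevalonate kinase, or a changed one such as HMG-CoA synthase, was not checked. The plots used matplotlib 3.10.9 and Python 3.11.15.

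The members, gene lists and alternatives were chosen with earlier results of these data known. The text names every member, every gene of the lists for entry and exit steps, prenyl diphosphate users, carotenoids, HMG-CoA lyase and regulators, up to 4 genes with the smallest adjusted p of the other lists, the 2 genes most like each member, and the genes beside each member on its contig. It also names unassigned_gene_5293 for its annotation. Lists were filled by KEGG map, description words, enzyme numbers or KEGG entries.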

Additional observations from a re-analysis of the deposited data

How the results depend on the processing

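HMG-CoA synthase and HMG-CoA reductase stayed lower in S and under an adjusted p of 0.05 (limma) in every alternative run. Centred libraries gave 444 genes higher and 937 lower, and 2 genes of the lists higher and 10 lower, where the deposited values gave 1218, 185, 12 and 6. Centring turned the sign of mevalonate kinase (-0.051) and phosphomevalonate kinase (-0.053), neither called in any setting, and brought a call for farnesyl pyrophosphate synthase (-0.51). Quantile normalization gave 404 higher and 518 lower, 5 list genes higher, -0.047 and -0.19 for the kinases and a call at -0.42 for farnesyl pyrophosphate synthase. Pairs called different were then 4 of 15 in place of 6. Without the trend 80 genes were lower. The difference between mevalonate kinase and phosphomevalonate kinase, 0.0019 with the pseudocount of 0.1, was -0.0014 with 0.01. With a pseudocount of 1, HMG-CoA synthase and phosphomevalonate kinase became a called pair (adjusted p = 0.0334).

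Leaving out each library in turn gave 494 (without the third S library) to 1341 (without the first C library) genes higher and 66 (without the second S library) to 293 (without the third C library) lower. Without the second S library 499 were higher, without the third S library 74 were lower, and without the second C library 720 were higher and 71 lower. Members called lower ranged from 2 to 3, members called higher were 0, and pairs called different ranged from 4 to 6, with 4 without the third S library. The log2 fold changes ranged from -0.84 to -0.55 for HMG-CoA synthase, -0.53 to -0.42 for HMG-CoA reductase, 0.16 to 0.27 for mevalonate kinase, 0.03 to 0.40 for phosphomevalonate kinase, 0.32 to 0.41 for diphosphomevalonate decarboxylase and -0.35 to -0.16 for farnesyl pyrophosphate synthase. The difference of mevalonate kinase minus phosphomevalonate kinase ranged from -0.20 to 0.13, and that of phosphomevalonate kinase minus the decarboxylase from -0.29 to 0.054, both never called. Without the 2 members of uncertain annotation, an alternative chosen after seeing the data, 2 of 4 were lower and 0 higher.

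Libraries with the same number in S and C had r of deviations of -0.02, 0.16 and -0.003. Those with different numbers ran from -0.12 to 0.09. With 3 libraries a group these values cannot show whether the numbers pair the libraries. With the replicate block 2 members were lower and 0 higher, HMG-CoA synthase was at -0.71 (adjusted p = 0.00536) and HMG-CoA reductase at -0.47 (adjusted p = 0.00869), 6 pairs differed, and 1051 genes were higher and 151 lower. With 3 libraries a group and no counts, changes of low genes are the least certain, as the SE of 0.24 for phosphomevalonate kinase shows beside 0.085 for HMG-CoA reductase.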
